A study of Danio rerio with 80 samples.

Results

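The genes of inhibitory transmission by GABA and glycine were followed in single whole brains of 80 adult zebrafish. Members were chosen by symbol: every row for a GABA-A, GABA-B or glycine receptor subunit, together with the glutamate decarboxylases gad1a, gad1b and gad2, the vesicular transporter slc32a1 and the uptake transporters slc6a1a and slc6a1b. The rule gave 36 of the 23473 rows of the deposited table. All fish were wild type of the AB strain. Exposure ran from 6 to 96 hours after fertilisation, and the fish were then moved to clean water and sampled as adults at 219 to 240 days. The 5 conditions were solvent alone (0.1% DMSO, called control), a mixture of persistent organic pollutants at 10 or 70 times levels measured in human blood (POP10, POP70), and perfluorooctane sulfonate alone at the levels it had in the mixture, 0.3 or 2.06 mg/L (PFOS10, PFOS70). All conditions, control included, carried the solvent. Each condition had 4 exposure replicates of 2 females and 2 males, which gives 8 fish per condition and sex in 10 groups. The replicate numbers 3, 4, 5 and 6 each had 1 age in every condition, 240, 233, 226 and 219 days, so number and age cannot be told apart.

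GABA and glycine are the main fast inhibitory transmitters of the vertebrate brain and spinal cord. Glutamate decarboxylases make GABA from glutamate, the vesicular transporter loads GABA and glycine into synaptic vesicles, and GAT-1 type transporters take GABA back up. GABA-A, rho and glycine receptors are chloride channels built from several subunits, whereas GABA-B receptors act through G proteins and need both of their subunits. Because many zebrafish genes were kept as duplicates after an ancient genome duplication, several members occur as a and b copies.

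Levels are written as log2 of normalised reads, the unit of the deposited table, in which a library summed to 1.27 to 1.42 times 1000000 normalised reads. They are not corrected for gene length, so the order of levels between genes was not read. The libraries held 9.01 to 20.3 Mreads over the listed genes (median 12.1; 1 Mread is 1000000 reads). A gene with 10 normalised reads had 71.2 to 144 reads behind it. Of the 36 members, 20 had a mean of at least 10 normalised reads over all libraries and were tested among 10646 genes. These were 9 of 16 GABA-A subunits, 0 of 5 rho subunits, 1 of 3 GABA-B subunits, 5 of 6 glycine receptor subunits, 2 of 3 decarboxylases, both uptake transporters and the vesicular transporter. Of 24 mature neuron markers 22 had a mean of at least 1 normalised read, and 7 of 9 pituitary markers were under 1. In whole-brain RNA, fewer cells of a type and less RNA per cell cannot be told apart, and this holds for every result here.

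Between fish of the same group the tested members were of 2 kinds. A steady set of 12 had standard deviations within groups of 0.15 to 0.47 (log2) and ranges from the lowest to the highest of the 80 fish of 1.67 to 4.42-fold. A variable set of 8 had standard deviations of 0.99 to 1.38 and ranges of 17.7 to 150-fold. No tested member lay between 0.47 and 0.99, and 7.89% of all tested genes had a standard deviation of at least 0.9. The 2 sets were defined from these values and are a description.

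The steady set held the tested genes of GABA synthesis and release, which leaves out gad1a, a gene under the threshold for testing. Over all 80 fish gad1b, a gene for the GAD67 form of the enzyme, lay between 9.73 and 10.67 with a median of 10.28. gad2, the decarboxylase found at nerve terminals in mammals, lay between 9.18 and 10.56 (median 10.08). slc32a1, which fills the vesicles, lay between 8.82 and 9.65 (median 9.22), and slc6a1b between 9.53 and 10.44 (median 10.07). These 4 genes thus stayed within 2.61-fold between any 2 fish. The beta subunits of the GABA-A receptor help to form the GABA binding site. Of these, gabrb2 lay between 9.06 and 9.80 and gabrb1 between 5.23 and 6.29. All 5 tested glycine receptor genes were in the steady set.

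The variable set held the tested alpha subunits, which with beta form the binding site and set drug sensitivity, together with gabrd, gabrz, the GABA-B subunit gabbr1b and the uptake transporter slc6a1a. gabra4 lay between 0.25 and 5.18 and gabra5 between 1.72 and 5.86. gabra6b had the widest range, from -1.01 to 6.22 (median 4.63). In mammals the alpha6 subunit is made mainly in cerebellar granule cells. gabrd, the subunit of receptors outside the synapse in mammals, lay between 2.31 and 7.66 (median 5.85). slc6a1a lay between 2.13 and 7.96 (median 5.28). The lowest fish was a 240-day fish for each of the 8 genes, and for slc6a1a all of the lowest 10 fish were of that age.

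**Figure D1:**
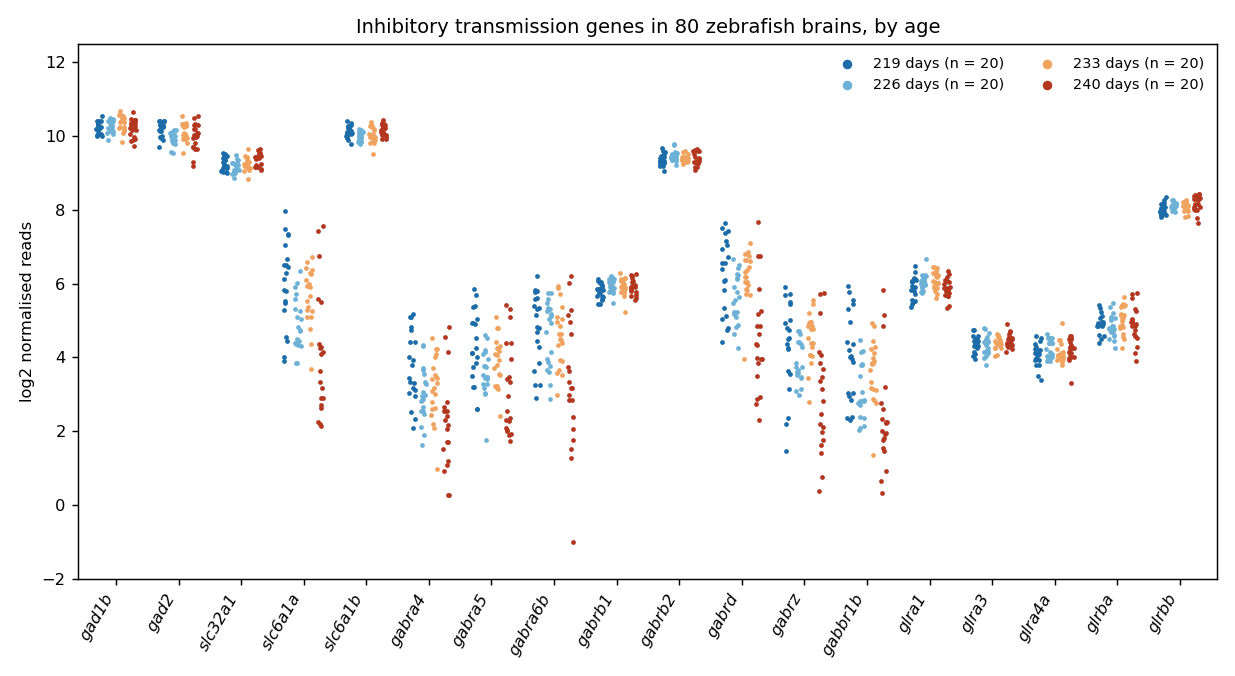
Level (log2 normalised reads) of 18 of the 20 tested members in each of the 80 fish; each point is 1 fish, coloured by age with 20 fish per age. gad1b, gad2, slc32a1, slc6a1b and gabrb2 form narrow bands, whereas slc6a1a, gabrd and the alpha subunits spread over several log2 units and reach their lowest values at 240 days.

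The 8 variable genes moved together from fish to fish. Their 28 pairs had Pearson correlations of 0.49 to 0.92 (median 0.84), and after removing the means of group and replicate number the median was 0.81. The 66 pairs of steady genes had a median of 0.13. The variable genes also followed the leading principal component of the tested genes that are not members, which carried 39.1% of the variance and is called the composition component here as a label only, with its sign set so that these genes rise with it. The correlations ran from 0.75 (gabra6b) to 0.96 (slc6a1a) over 80 fish, and for slc6a1a from 0.84 to 0.97 within the single ages. The points share their libraries and their scaling, so these values are a description. Among all tested genes 13.6% had a correlation of at least 0.75, and the median was 0.16. The component was taken from log2 values without scaling each gene, so genes of wide spread weigh most in it. The 8 genes were chosen for wide spread, so the share of all genes is not a like background. gad2 followed the component less closely (0.66) and glrbb ran against it (-0.80). Markers did not move alike with it: summed over the list, mature neuron markers correlated with the component at 0.57, hindbrain and spinal cord markers at 0.40, radial glia at 0.22, oligodendrocyte markers at 0.07 and erythrocyte markers at -0.14, and their part in the spread was not tested.

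Some duplicate genes differed in their spread. Of the genes named here gad1a, gabbr1a and gabbr2 were under the threshold for testing. They belong to neither set, and counting error widens their ranges. slc6a1a ranged 57.1-fold between fish while slc6a1b, its duplicate, ranged 1.88-fold, and the copies had a correlation of -0.06. gad1a ranged 291-fold, from 1 to 265 reads, and followed the component at 0.95, while gad1b ranged 1.92-fold and followed it at 0.28. Both GABA-B receptor 1 genes ranged widely (94.2-fold for gabbr1a, 49.1-fold for gabbr1b, correlation 0.82). gabbr2, the partner that GABA-B receptors need, followed gabbr1b at 0.92. The glycine receptor beta genes, whose product anchors the receptor at the synapse in mammals, ran against each other (glrba and glrbb, -0.48). How reads shared by similar copies were assigned is not given in the sources used here.

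**Figure D2:**
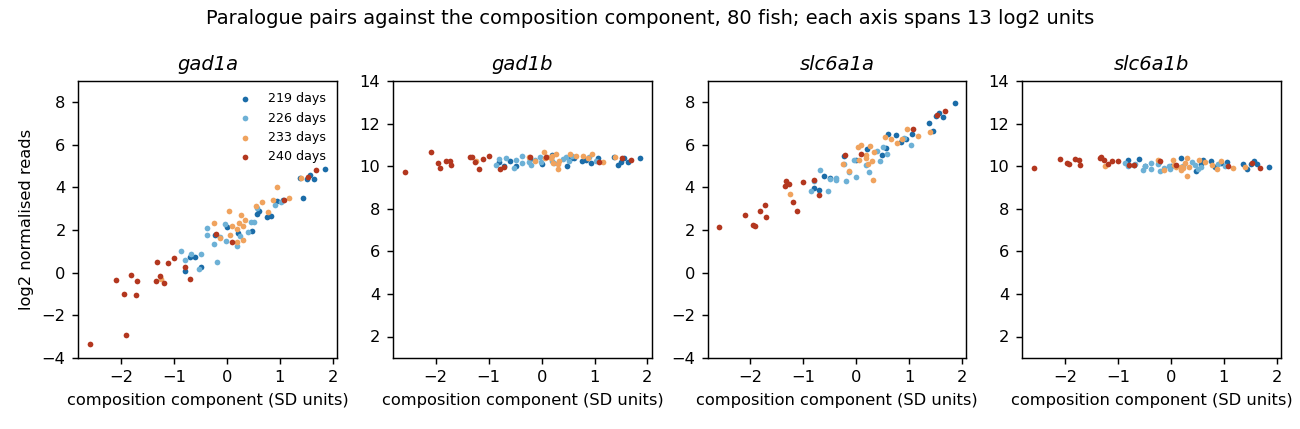
Level (log2 normalised reads) of gad1a, gad1b, slc6a1a and slc6a1b against the composition component in 80 fish coloured by age; every vertical axis spans 13 log2 units. gad1a and slc6a1a climb with the component while gad1b and slc6a1b stay level.

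Neighbouring receptor genes were correlated across fish in some pairs and not in others. On chromosome 13 (positions of the deposited table, build GRCz11) gabra2a and gabrg1 had a correlation of 0.76, whereas gabrg1 and the neighbouring gabrb1 had -0.03. On chromosome 14 gabra6a and gabrb2 lie 3.26 kb apart and had a correlation of 0.09. Median reads per fish were 3 for gabra6a, 12 for gabra2a and 20.5 for gabrg1, so counting error limits these correlations, most of all that of gabra6a. Some members overlap genes on the opposite strand. Among them glrbb lies within pdgfc on chromosome 14 (shared 40.3 kb), and slc6a1a shares 15.5 kb with vgll4a on chromosome 23. Counting by strand is not stated, so reads of overlapping partners cannot be told apart, and the correlations of -0.76 for glrbb with pdgfc and of 0.60 for slc6a1a with vgll4a carry this limit.

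The 16 members under the threshold were present at few reads, with medians of 0 to 80 reads per fish, and counting error widens their spread. Of them 12 had a mean of at least 1 normalised read. gabrp, the pi subunit, was the steadiest of these (2.28 to 3.74), and glra4b lay between 0.08 and 2.87. Retina and pineal markers summed to 11.6 to 866 normalised reads per fish, and their part in the rho subunits was not tested. These subunits, known chiefly from the retina, included gabrr1 with 10 to 110 reads, gabrr2a with 1 to 76 and gabrr2b with 4 to 61. gabrr3a had 0 reads in 67 of the 80 libraries, gabra3 in 27, gabra6a in 8, and gabra2a and gabrr3b in 4 each. Beside gad1a, the low members gabbr2, gabbr1a, gabrb4, gabrr2a, gabra2a and gabrg1 had correlations of at least 0.75 with the component. A test down to a mean of 1 added these 12 genes. None of them passed in any exposure or sex comparison, with a lowest adjusted p of 0.354 (limma). In this fit 9 of the 12 passed over the replicate numbers, where 61.6% of all 16870 genes passed. Between 240 and 233 days 5 of the 12 passed, all lower, beside 47% of all genes. Between 226 and 219 days 7 of the 12 passed, 6 lower and 1 higher, beside 20.3%.

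The design first asks whether adult brains of exposed and control fish differ. No member passed at an adjusted p of 0.05 (limma, Benjamini-Hochberg over 10646 genes) in any of the 4 exposures, with 16 exposed and 16 control fish each. The background was as low: 0.0188% of all tested genes passed for POP10, 0% for POP70, 0.00939% for PFOS10 and 0% for PFOS70. At an unadjusted p under 0.05 the members counted 0 for POP10, 0 for POP70, 4 for PFOS10 (among them gabrd, gabra4 and gabbr1b) and 2 for PFOS70 (among them glra3), and the fit to recovered reads called 0 in each. Of all 10646 tested genes 417, 165, 1197 and 588 had such an unadjusted p in the same order (limma). All 4 comparisons share the same control fish. Of the 20 members, 17 had a mean above control in POP10, 15 in PFOS70, 13 in PFOS10 and 11 in POP70. The members' median difference was 0.10 for POP10, 0.13 for PFOS70, 0.14 for PFOS10 and 0.01 for POP70, beside 0.01, 0.02, 0.04 and 0.01 over all tested genes.

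PFOS10 gave the widest differences. gabbr1b lay between 0.92 and 4.15 in control fish (median 2.84) and between 1.92 and 5.94 in PFOS10 fish (median 3.83), and the groups overlapped. The difference was 1.02 ± 0.43 (SE; 95% interval 0.17 to 1.87; adjusted p = 0.432, limma). gabrd differed by 0.88 ± 0.41 (adjusted p = 0.432, limma). The composition component had means of -0.34 in control, 0.39 in PFOS10, 0.15 in PFOS70, -0.03 in POP10 and -0.17 in POP70 fish, and the variable genes moved with it. With the component as a covariate the PFOS10 difference of gabbr1b was 0.17.

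The steady members had narrower intervals in the exposure comparisons. Their differences lay between -0.15 and 0.22 over all 4 exposures, with 95% intervals no wider than ± 0.33. These intervals take the 16 fish of a condition as independent, though fish of 1 exposure replicate correlated at 0.24. gabrb2 had lower means than control in every exposure. In control fish it lay between 9.08 and 9.80 (median 9.48), and in POP10 fish between 9.15 and 9.60 (median 9.42), so that the fish overlapped. Its difference was -0.08 ± 0.05 for POP10, -0.09 ± 0.05 for POP70, -0.10 ± 0.05 with PFOS10 and -0.07 ± 0.05 with PFOS70, none past the threshold. Over means of 4 fish, each of the 4 POP10 replicates (9.36 to 9.41) lay below each of the 4 control replicates (9.42 to 9.54). The exact two-sided permutation test of this gave p = 0.0286, the smallest that 4 against 4 allows, and 0.411 after adjustment over the 16 such tests made. With the replicates taken as pairs of 1 number it gave 0.125, and no lower value can come from 4 pairs. glra3, a glycine receptor alpha subunit, lay between 3.96 and 4.74 in control fish (median 4.34) and between 4.24 and 4.80 in PFOS70 fish (median 4.47), and differed by 0.17 ± 0.07 (adjusted p = 0.760, limma; exact permutation p = 0.0571 over replicates, 0.125 when paired by number). For numbers 3 to 6 the replicate means of glra3 were 4.43, 4.33, 4.28 and 4.29 in control fish. In PFOS70 fish they were 4.49, 4.35, 4.69 and 4.45, so the conditions lay farthest apart in number 5. glrbb differed by -0.11 ± 0.05 in PFOS10 and by -0.09 ± 0.05 in PFOS70 and did not pass. For the rest of the smallest p-values by direction, POP10 differed by 0.10 ± 0.06 in slc6a1b, 0.65 ± 0.41 in gabrz and -0.35 ± 0.44 in gabra6b. POP70 differed by 0.06 ± 0.09 in gad2 and -0.06 ± 0.05 in glrbb, and PFOS70 by -0.15 ± 0.10 in glra4a.

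**Figure D3:**
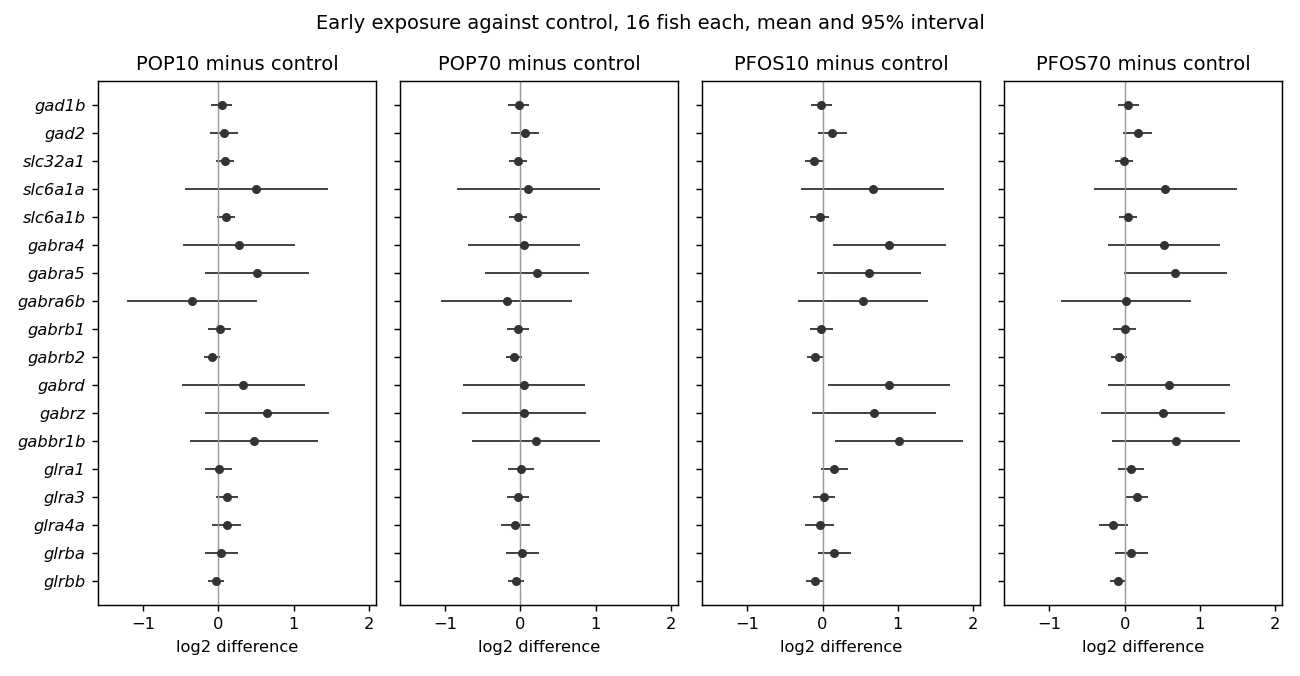
Difference of each exposure from control (log2) for 18 of the 20 tested members, 16 fish against 16; points are the differences and bars their 95% intervals. The steady genes sit near 0 with short bars, and the wide bars of slc6a1a, gabbr1b and the alpha, delta and zeta subunits reach over 0 in most panels.

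Within the single replicate numbers the variable genes differed by exposure unequally. At 219 days (number 6, 4 fish of 1 exposure replicate each) slc6a1a lay between 4.00 and 5.84 in control, 6.12 and 7.96 in PFOS10 and 6.52 and 7.35 in PFOS70 fish, without overlap with control. gabbr1b lay between 2.36 and 3.97 in control, 3.88 and 5.94 in PFOS10 and 4.37 and 5.78 in PFOS70 fish. At this age 5 of the 8 variable genes in PFOS10 and 7 of 8 in PFOS70 lay above every control fish, beside 19% and 17.3% of all tested genes. The 8 genes were chosen for a wide spread that includes these fish, and they moved together. The share of all genes is thus no like background, and the counts are a description. The median difference of the 8 was 1.95 and 1.86. The component differed by 1.54 in both. The same medians were 0.02 and 0.26 at 226 days, 0.27 and 0.63 at 233 days, and 0.96 and -0.31 at 240 days. The 12 steady genes had medians of 0.05 and -0.03 at 219 days. The PFOS10 and PFOS70 medians of the variable genes at 219 days were the largest of any exposure and number. Both were set against the same 4 control fish. In POP10 fish the medians at 219, 226, 233 and 240 days were 0.51, 0.30, 0.18 and 0.69, and in POP70 fish 0.40, -0.47, -0.62 and 1.05. All 8 genes were above control in PFOS10, POP10 and POP70 at 240 days, and 0 of 8 in POP70 at 233 days. A number holds 1 exposure replicate per condition, so these values have no test.

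Mixture and PFOS alone were compared at matched PFOS levels, and high with low level of each. No member passed in any of these 4 comparisons (limma), where 0% of all tested genes passed for POP10 against PFOS10, 0% for POP70 against PFOS70, 0.00939% for PFOS70 against PFOS10 and 0% for POP70 against POP10. At an unadjusted p under 0.05 the members counted 3, 1, 0 and 1, beside 701, 435, 202 and 395 of all 10646 tested genes (limma). The smallest p among the members was that of slc32a1, which lay between 9.003 and 9.645 in POP10 fish (median 9.35) and between 8.82 and 9.45 in PFOS10 fish (median 9.15). The ranges overlapped, and the difference was 0.21 ± 0.06 (adjusted p = 0.679, limma). Next in this comparison were slc6a1b (0.14 ± 0.06), gabra6b (-0.89 ± 0.44) and glra1 (-0.16 ± 0.09). Between POP70 and PFOS70 glra3 differed by -0.20 ± 0.07 (adjusted p = 0.965, limma), glra4a by 0.08 ± 0.10 and glrbb by 0.03 ± 0.05. Without replicate 3, the 240-day fish, 7 members passed as lower in POP70 than PFOS70 (among them slc6a1a -1.28, gabbr1b -1.27, gabrd -1.12, gabrz -1.08, gabra4 -1.002 and gabra5 -0.99), of 941 genes in all (8.84%). In POP70 against POP10 the members of smallest p by direction included slc6a1b (-0.14 ± 0.06), glra3 (-0.15 ± 0.07) and gabra6b (0.16 ± 0.44). In PFOS70 against PFOS10 they were glra3 (0.14 ± 0.07), slc32a1 (0.10 ± 0.06), gabra6b (-0.52 ± 0.44) and glra4a (-0.11 ± 0.10). For glra3 the replicates of number 5 lay farthest apart both here and in POP70 against PFOS70. Their means were 4.69 in PFOS70, 4.27 in PFOS10 and 4.09 in POP70 fish. In the test of any exposure 0 members passed (background 0.0658%, lowest adjusted p 0.947, limma). An unadjusted p under 0.05 was found for 2 members, beside 408 of all 10646 genes (limma). Without replicate 3 gabrd and gabbr1b passed, beside 5.23% of all tested genes. In the test of whether exposure differed by sex 0 members passed (background 0%, limma). There 1 member had an unadjusted p under 0.05, beside 140 of all 10646 genes (limma).

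Sex differed in 1 member. glrba, the beta a subunit of the glycine receptor, lay between 4.11 and 5.61 in females (median 4.77, 40 fish) and between 3.90 and 5.75 in males (median 5.08, 40 fish). The ranges overlapped, and the male fish were higher on the whole. Means were 4.73 ± 0.27 and 5.11 ± 0.35 (SD), a difference of -0.38 ± 0.07 (SE; 95% interval -0.52 to -0.24; adjusted p = 0.000373, limma), 1.3-fold higher in males. Females were lower in 17 of 20 exposure replicates. This was 1 of 20 members, with 1.31% of all tested genes passing. The difference was -0.12 in control fish, -0.33 in POP10, -0.56 in both POP70 and PFOS10 and -0.32 in PFOS70 fish, and -0.24, -0.59, -0.41 and -0.28 in numbers 3 to 6. In control fish alone no member passed (background 0%, limma), and 0 had an unadjusted p under 0.05, beside 161 of all 10646 genes. The 2 smallest p-values of members in each direction belonged to gabra6b (-0.84 ± 0.62), glra4a (-0.13 ± 0.14), glra3 (0.13 ± 0.10) and slc6a1b (0.10 ± 0.09). Without replicate 4 the difference was -0.31 and did not pass (adjusted p = 0.0991, limma).

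The other glycine receptor genes had smaller sex differences. glra1, the main adult alpha subunit in mammalian spinal cord, lay between 5.37 and 6.22 in females (median 5.92) and between 5.33 and 6.67 in males (median 6.09), with overlap. It differed by -0.18 ± 0.06 (adjusted p = 0.0871, limma), and with the replicate number as a block it passed (adjusted p = 0.0438, limma). glrbb differed the other way, by 0.09 ± 0.03 (adjusted p = 0.235, limma). The 8 variable genes had sex differences between -0.43 (gabrz) and 0.11 (gabra4), none past the threshold. Oligodendrocyte markers had the same direction of sex difference as glrba. All 11 markers of the list had lower means in females and 5 passed, beside 1.31% of all tested genes. Their summed level ranged from 5748 to 13374 normalised reads in females (median 8684) and from 5088 to 18763 in males (median 10962). The log2 sum correlated with glrba at 0.50 and with glra1 at 0.49 over the 80 fish. These values pool both sexes, so a shared sex difference enters them. The summed genes of GABA breakdown and of GABA and glycine uptake correlated with glrba at 0.53, and those of the inhibitory synapse scaffold at -0.04. Between 240 and 233 days, where most of the oligodendrocyte markers passed as lower, glrba did not pass. Microglia markers had median sums of 384 in females and 502 in males. Their ranges were 259 to 686 and 330 to 1086, and 2 of the 11 markers had a mean under 1 normalised read. Hindbrain and spinal cord markers had median sums of 8.11 and 12.6, with ranges of 2.40 to 61.1 and 1.81 to 101, and 15 of the 20 found had a mean under 1. Of the mature neuron markers only the neurofilament genes nefla, nefma and nefmb passed for sex, all higher in males, and the other tested markers of that list did not. Of these genes nefma had means of 7.17 ± 0.39 in females and 7.58 ± 0.54 in males (SD). The part of these cells or regions in the difference was not tested.

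**Figure D4:**
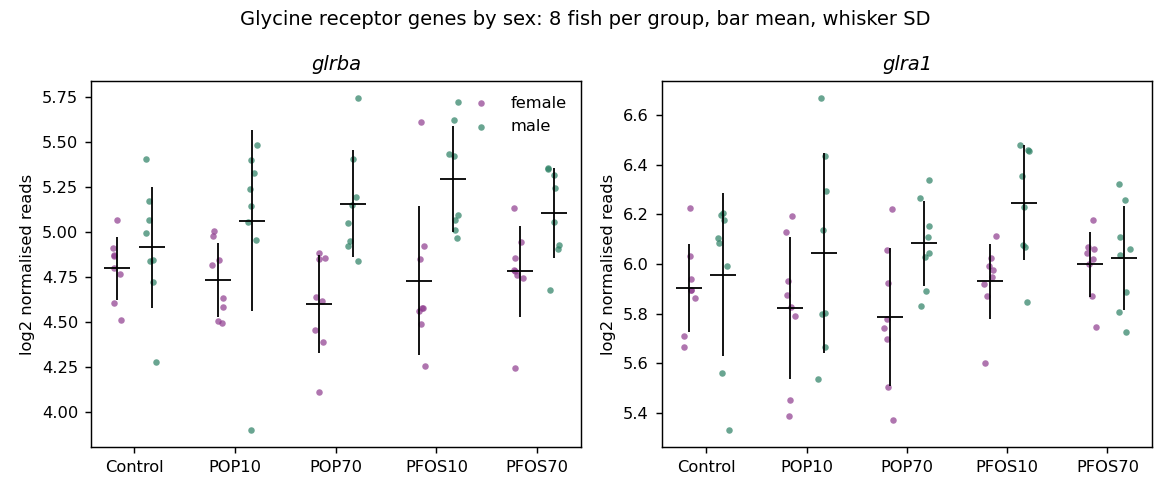
Level (log2 normalised reads) of glrba and glra1 by condition and sex; points are single fish (8 per group), the bar is the mean and the whisker 1 SD. In glrba the male mean is above the female mean in all 5 conditions, by least in control fish.

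More members passed for replicate number, and with it age, than for exposure or sex. In the test over the 4 numbers 13 of 20 members passed (65%), beside 67.9% of all tested genes, so the members' share was near the background (limma). Number took 18.4 to 33.6% of the sum of squares of the 8 variable genes, and condition 3.8 to 10.3%. Between 240 and 233 days 11 members passed, 10 of them lower and 1 higher at 240 days, where 49.9% of all genes passed and the median gene was 0.13 lower. Between 226 and 219 days 5 members passed, all lower at 226 days, where 24.9% of all genes passed. Of all 10646 genes 920 passed as lower and 1726 as higher at 226 days. Between 233 and 226 days 0 members passed, where 5.71% of all genes passed. There 3 members had an unadjusted p under 0.05, beside 2579 of all 10646 genes (limma). Without replicate 3, the 240-day fish, 7 members passed over the other numbers, beside 51.5% of all genes, and 11 between 226 and 219 days, beside 35.3%.

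The 240-day fish held the lowest levels. gabrd lay between 2.31 and 7.66 at 240 days (median 4.35) and between 3.94 and 7.11 at 233 days (median 6.24). The ranges overlapped, but the 240-day fish were lower in all 5 conditions. The difference was -1.68 ± 0.29 (3.20-fold lower at 240 days; adjusted p = 5.19e-06, limma). slc6a1a lay between 2.13 and 7.57 at 240 days (median 3.86) and between 3.68 and 6.73 at 233 days (median 5.78). It was lower by 1.54 ± 0.36 on the log2 scale (adjusted p = 0.000293, limma), and lower in 4 of 5 conditions. gabrz was lower by 1.51 ± 0.32, gabra6b by 1.27 ± 0.34 and gabbr1b by 1.24 ± 0.33. gabra4 was lower by 0.97 ± 0.29 and gabra5 by 0.75 ± 0.28. Pooled over the conditions, all 8 variable genes were lower, with a median of -1.25. The conditions were unequal in this. Replicate means of gabbr1b at 240 and 233 days were 2.01 and 3.32 in control, 2.99 and 3.96 in PFOS10 and 1.12 and 4.37 in PFOS70 fish. They were 2.80 and 3.49 in POP10, and 3.01 and 2.99 in POP70 fish. In POP70 fish slc6a1a (5.12 and 5.03) and gabra4 (2.44 and 2.25) were not lower at 240 days either. Those of gabrd were 3.77 and 6.38 in control and 4.97 and 5.47 in POP70 fish. Of 21 tested mature neuron markers 12 passed and all 12 were lower at 240 days, where 43.2% of all tested genes passed as lower. Among the 12 were vamp2 (-1.88), a synaptic vesicle protein gene, and eno2 (-0.89), the neuronal enolase gene. The summed level of this list ranged from 16222 to 21989 normalised reads at 240 days (median 20166) and from 20548 to 23248 at 233 days (median 22098), with 2 of the 24 listed markers at a mean under 1. Of 11 oligodendrocyte markers 9 passed, all lower, beside the same 43.2%. Their sums were 5088 to 11446 (median 8754) at 240 days and 6656 to 17073 (median 9538) at 233 days. The part of these cells in the difference was not tested. With the composition component as a covariate, among the variable genes gabra5 (0.45), gabbr1b (0.31), gabra4 (0.31) and slc6a1a (0.17) turned the other way without passing. These genes followed the component closely, so such a fit takes out any difference they share with it. After quantile normalization gabbr1b (-0.37), gabra5 (-0.14) and gabra4 (-0.01) no longer passed. Among the steady genes, glra1 (-0.22 ± 0.07) and gad1b (-0.15 ± 0.06) passed as lower, though not after quantile normalization (-0.10 and -0.09), and slc6a1b as higher (0.13 ± 0.05; adjusted p = 0.0241, limma).

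Between 226 and 219 days all 8 variable genes had lower means in the older fish, and 4 of them and gad2 passed. slc6a1a lay between 3.84 and 6.34 at 226 days (median 4.78) and between 3.89 and 7.96 at 219 days (median 6.20), with overlap. It was lower in all 5 conditions, by 1.098 ± 0.36 (2.14-fold; adjusted p = 0.0201, limma). The sizes were unequal. Replicate means at 226 and 219 days were 4.97 and 5.02 in control, 5.01 and 7.16 in PFOS10, and 5.25 and 6.96 in PFOS70 fish. They were 5.16 and 5.74 in POP10, and 4.24 and 5.25 in POP70 fish. gabbr1b was lower by 0.98 ± 0.33 and gabra4 by 0.76 ± 0.29. In the same order of ages, replicate means of gabbr1b were 2.96 and 2.91 in control fish. They were 3.26 and 5.06 in PFOS10, 3.21 and 5.25 in PFOS70, 3.36 and 3.43 in POP10, and 2.52 and 3.53 in POP70. Those of gabra4 were 2.87 and 2.93 in control, 2.80 and 4.70 in PFOS10, and 3.02 and 4.69 in PFOS70. In POP10 they were 3.41 and 2.97, and in POP70 2.80 and 3.40. gad2 lay between 9.55 and 10.17 at 226 days (median 10.02) and between 9.71 and 10.42 at 219 days (median 10.26). It was lower by 0.23 ± 0.08 (adjusted p = 0.0323, limma) and lower in all 5 conditions. The gap was smallest in control fish, with replicate means of 10.06 at 226 and 10.07 at 219 days. The order was not one of steady decline: mean gabrd was 6.24, 5.60, 6.20 and 4.52 at 219, 226, 233 and 240 days, and mean slc6a1a 6.02, 4.93, 5.64 and 4.09. These means pool the conditions. In control and POP10 fish both genes were highest at 233 days, in the other conditions at 219 days. Control fish had 6.38 (gabrd) and 5.58 (slc6a1a) at 233 days, and 5.61 and 5.02 at 219 days. The steady genes slc32a1 (9.25, 9.16, 9.24 and 9.34) and glrbb (8.02, 8.11, 8.07 and 8.17) passed the test over numbers and had their highest mean at 240 days.

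The age differences moved with the composition component, which had means of 0.60, -0.02, 0.34 and -0.92 at 219, 226, 233 and 240 days. The share of normalised reads on 76 ribosomal protein genes was 3.22, 3.59, 3.78 and 3.98% in the same order. With the component as a covariate 6 members passed over the 4 numbers (among them slc6a1b, gabrz, glra1, gabbr1b and slc6a1a), and 1 passed between 240 and 233 days, beside 47.1% and 25.8% of all genes. The covariate takes out any difference shared with the component, and the part of the component was not tested. The clock gene nr1d1 had means of 7.22 ± 0.37, 4.21 ± 1.80, 5.08 ± 0.57 and 7.16 ± 0.43 (SD) at 219, 226, 233 and 240 days. Its part in the age differences was not tested. When the correlation between the 4 fish of an exposure replicate (0.24) was modelled, 7 members passed over the numbers (35% of all genes), 5 between 240 and 233 days (29%) and 0 between 226 and 219 days (2.92%). Each age is 1 replicate number, and what else the numbers shared is not given in the sources used here.

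**Figure D5:**
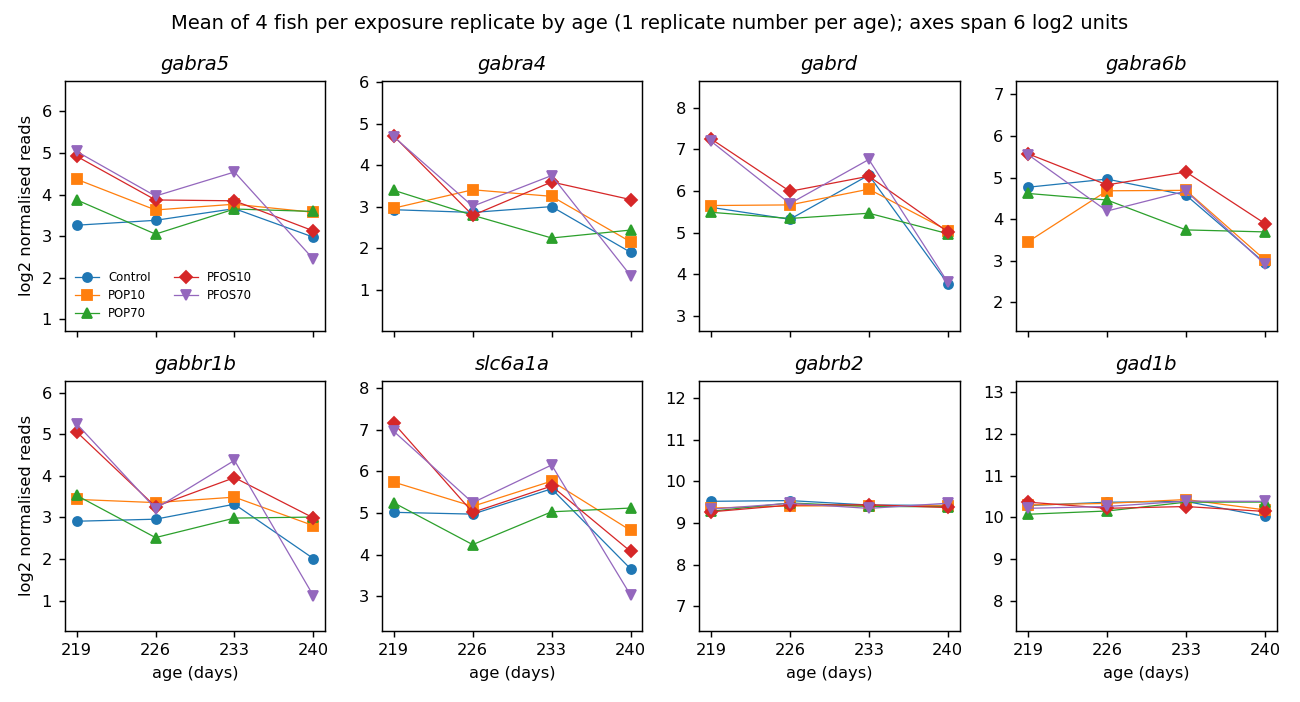
Mean level (log2 normalised reads) of 4 fish in each of the 20 exposure replicates against age (days) for 6 variable genes and for gabrb2 and gad1b; lines join the replicates of a condition, which are different fish. The PFOS10 and PFOS70 replicates stand above the others at 219 days in the variable genes, the control, POP10, PFOS10 and PFOS70 replicates are lowest at 240 days in gabrd and slc6a1a, and the means of gabrb2 and gad1b lie between 9.27 and 9.54 and between 10.02 and 10.43.

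Other genes that serve inhibitory synapses were counted in the same comparison. Of 9 tested genes of GABA breakdown and of GABA and glycine uptake, 7 were lower and 0 higher at 240 than at 233 days, where 43.2% of all tested genes passed as lower. Among them slc6a11b, a GABA transporter, was 3.21-fold lower, and shmt2, an enzyme of glycine metabolism, 2.55-fold lower. aldh5a1, which removes succinic semialdehyde, was 2.53-fold lower and abat, the GABA transaminase, 1.78-fold lower. Of 19 tested scaffold genes 12 passed, 7 lower and 5 higher, beside 4598 lower and 714 higher of all 10646 tested genes. gphna and gphnb, which encode the receptor anchor gephyrin, were higher by 0.42 ± 0.07 and 0.36 ± 0.09, and arhgef9b, which encodes the gephyrin partner collybistin, by 0.38 ± 0.08. Mean arhgef9b was 8.76, 8.12, 8.39 and 8.77 at 219, 226, 233 and 240 days, so its 240-day level was near that at 219 days. nlgn2b, a postsynaptic neuroligin, was lower by 1.06 ± 0.33 while its duplicate nlgn2a was lower by 0.11 ± 0.04. Of 4 chloride transport genes 2 were lower: slc12a5b, a neuronal chloride exporter gene, by 4.21-fold and slc12a2 by 1.11-fold. Of 27 factors and peptides of GABAergic neurons 9 were lower, 33.3% of the list beside the 43.2% of all genes, among them tal2 by 3.20-fold and lhx1a by 1.3-fold, and 0 were higher. In none of these 4 lists did a gene pass in an exposure comparison with control. Of 32 tested glutamate transmission genes 65.6% passed over the numbers, close to the 65% of the members.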

How the data were processed

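Per the labels' protocols, poly-A RNA of single adult brains was made into libraries with an NEBNext Ultra kit and read as pairs on a HiSeq machine. Per the submitters' processing notes, Trim Galore 0.4.5, STAR 2.5.4b, DESeq2 and R 3.5.0 were used with build GRCz11; counting, annotation and strand are not given in the sources used here. The authors deposited log2 normalised values, 1 per gene and fish. Linear values under 5000 reads were whole multiples of 1 read (tolerance 0.02) in 100% of cases in each library, and a 0 stood as 0.9 read, so reads could be recovered; the scaling factor is unknown. Intervals cover counting error or spread between fish only.

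Genes with a linear mean of at least 10 entered a limma fit (limma 3.58.1, R 4.3.3; 1 mean per group, moderated test with a trend, two-sided, adjusted over all tested genes, threshold 0.05), after a check on simulated data. Differences over both sexes average the 2 sexes equally. Numbers were compared with the groups kept in the fit. Replicate numbers were read as pairing samples, since by the labels all fish of a number have 1 age. The main fit behind the exposure and sex results did not include the number, which entered only in alternatives. Over 40 pairs of groups sharing a number, deviations from the condition means correlated at a median of 0.33 (-0.15 to 0.82, 35 over 0.1). For other numbers the median was -0.12. Deviations of a condition sum to 0 over its numbers, which pushes that median below 0, so it is no separate support for pairing. The 4 fish of an exposure replicate share 1 exposure, and p-values rest on the spread among single fish. No library was a copy of another of its group (280 pairs within groups, variance at least 5.29 times counting noise). Pairs from different groups were not compared. Named members were those that passed, at most 12 per comparison; where none passed, the 2 smallest p-values in each direction were given. Full values by group were kept to the members called most often and, failing that, those of smallest p. Results for some members are not reported here, though counts and medians over the members include them. Members and lists were chosen with earlier results of these data known. Of 22925 gene IDs 22752 stood in the gene name table. Alternatives covered scaling, pseudocounts of 1 and 5, filters, a fit to recovered reads (voom), the replicate block, correlated fish, left-out replicates and the component as a covariate. No genome or protein sequence was used.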

Additional observations from a re-analysis of the deposited data

Results flagged for a closer look

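In 13 of 200 groups of 8 fish 1 fish stood apart from the other 7 by a Dixon test, where chance gives about 1 in 20. Each group mixed fish of all ages, and the genes shared the same fish, so this rate is only a rough guide. The 13 values came from 8 different fish, and 11 of them were of replicate number 3 and 2 of number 4. All values are log2 normalised reads. Low fish were found in glrba at 4.241 (PFOS70 female, number 4) and 3.897 (POP10 male), in gabrz at 0.3822 (PFOS10 female), in gabra4 at 0.253 (control male) and 0.2573 (POP10 male), and in gabrb2 at 9.084 (control female). Further low fish were in glra1 at 5.6 (PFOS10 female, number 4), gabra6b at -1.006 (POP10 male), slc6a1a at 2.127 (control male) and gad2 at 9.177 (control male). High fish were in glra3 at 4.906 (POP10 male), glrbb at 8.419 (POP10 male) and glra4a at 4.512 (PFOS10 female).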

How the results depend on the processing

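No member passed for any exposure against control, high against low level, POP10 against PFOS10, exposure by sex, sex in control fish or 233 against 226 days under any alternative run. Of all genes 5 to 1248 passed between 233 and 226 days over the alternatives, and at most 8 in any other of these comparisons. With the replicate number as a block, 2 members passed for sex (1 without it), and the replicate block changed no other count of calls by over 1.5 times; 2 also passed with fish of a replicate correlated, and without the 2 fish farthest on the component, an alternative chosen after seeing the data. Leaving out a replicate gave 0 to 1 for sex, 0 to 7 for POP70 against PFOS70, 0 to 2 for any exposure, 7 to 14 over numbers and 6 to 11 between 226 and 219 days. Over all alternatives, 27 to 286 of all genes passed for sex, 0 to 941 for POP70 against PFOS70 and 0 to 557 for any exposure. Over numbers 3725 to 10785 of all genes passed, and 311 to 3753 between 226 and 219 days. Over numbers, 23 members passed with no filter on low values, where all 36 were in the fit. With a lowest mean of 1, which added 12 members to the 20, 22 passed (61.6% of all genes). With correlated fish 7 passed (35% of all genes), and 6 with the component as a covariate (47.1%). Between 226 and 219 days, 12 passed with no filter or a lowest mean of 1 (20.3% of all genes for the latter). There 10 passed after quantile normalization, 2 with the covariate, 1 over means per replicate and sex, and 0 with correlated fish (2.92% of all genes). Between 240 and 233 days, 5 passed with correlated fish (29% of all genes) and 1 with the covariate (25.8%). The covariate turned gabra5 to 0.4468, gabbr1b to 0.3134, gabra4 to 0.3082 and slc6a1a to 0.1716. The causes were not tested.

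Differences that were not called could change sign when a replicate was left out. For gad2 they ran from -0.09298 to 0.142 in POP70 against control. They ran from -0.01007 to 0.1688 for glra4a and from -0.01002 to 0.1069 for glrbb in POP70 against PFOS70, and from -0.1663 to 0.5369 for gabra6b in POP70 against POP10. With the covariate, glrbb in POP70 against PFOS70 was -0.01057, and -0.01639 with the replicate block too. Read depth limits the 16 low members.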
